A study of Ctenopharyngodon idella with 15 samples.

Results

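In the gills of grass carp (Ctenopharyngodon idella) from an experiment on salinity, 200 genes were studied whose 3 highest FPKM values all belonged to the 3 6‰-treated asymptomatic fish. They were taken from the 40116 genes of the deposited files by their measured levels. A gene had to be above 0 FPKM in all 15 fish with a mean FPKM of at least 1, and the lowest 6‰-treated asymptomatic fish had to exceed the highest of the other 12 fish. At least 1 treated fish also had to lie at or below a control fish, which sets these genes apart from genes that were higher in every treated fish. Genes named in the figures of the study were left out of the 200 and are described separately. FPKM counts the fragments of a gene relative to its transcript length and to the size of its library.

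The series held 5 groups of 3 fish, all aged 3 months, with 1 gill library per fish after 30 days. At 6‰ salinity there were a 6‰-treated asymptomatic group and a 6‰-treated symptomatic group, and at 3‰ salinity likewise a 3‰-treated asymptomatic and a 3‰-treated symptomatic group. The con fish were untreated, with no salt added. The labels call the asymptomatic and the con fish healthy and the symptomatic fish injured on the body, and they write the salinities as 3% and 6%. Asymptomatic and symptomatic fish were separated by their appearance after the treatment, so the health groups were not assigned at random, and all fish came from 1 exposure experiment. No strain, sequencing batch or date is given, and it is not said whether the fish of a group shared a tank. If they did, the spread between fish would not include that between tanks.

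The gill is the organ in which a freshwater fish takes up oxygen and ions and excretes ammonia, and its epithelium is also a barrier to microbes. Ionocytes move salts across that epithelium, tight junction proteins such as claudins seal the space between cells, and mucous and immune cells lie among them. When the water becomes saltier, a freshwater fish has to reduce its uptake of ions, and many gill genes are known to take part in this. In RNA from whole gills, fewer cells of a type and less RNA per cell cannot be told apart.

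Of the 40116 genes, 23368 were above 0 FPKM in all fish and 20971 of these had a mean FPKM of at least 1. All 3 6‰-treated asymptomatic fish exceeded the other 12 fish in 488 of these genes, which is 2.33% of them. The same count was 26 genes for the 6‰-treated symptomatic group, 190 for the 3‰-treated asymptomatic group, 203 for the 3‰-treated symptomatic group and 83 for con. Of the 488 genes, 9 were left out because every treated fish exceeded every con fish and 10 because the study names them. This left 469 genes, of which the 200 with the largest difference were kept. That difference was the mean log2(FPKM + 1) of the 6‰-treated asymptomatic fish minus that of the other 12 fish. These values chose the genes, so the levels of the 6‰-treated asymptomatic fish are given as a description, with no test. The count of 469 genes before the limit moved with single fish. It was 942 without 6‰-treated asymptomatic replicate 2, 899 without replicate 3 of that group and 706 without 3‰-treated asymptomatic replicate 2. Each of these left 1 fish fewer to meet the criterion. The 200 genes kept after the limit changed too. Of them, 99 were still kept without 6‰-treated asymptomatic replicate 3, 109 without replicate 2 and 151 without replicate 1 of that group. Without 1 of the other 12 fish, between 131 (6‰-treated symptomatic replicate 3) and 192 (con replicate 2) were still kept.

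The 200 genes were a group of moderate differences. The difference on the log2 scale was between 0.59 and 2.37 with a median of 0.76. The mean FPKM of the 6‰-treated asymptomatic fish was between 1.48 and 5.62 times the mean of the other 12 fish, with a median of 1.83, and it was at least 2 times as high in 65 genes. The gap between the groups was narrower. The lowest 6‰-treated asymptomatic fish was between 1.0006 and 1.81 times the highest other fish (median 1.11), and in 88 genes this ratio was under 1.1. Over all 15 fish their mean FPKM had a median of 9.13, and that of the 20971 genes was 10.7. Their mean FPKM in the 6‰-treated asymptomatic fish was between 1.93 and 1415 (median 14.2), with 5 genes at 100 FPKM or more and 76 under 10 FPKM. The median over the 200 genes of the group mean was 14.2 FPKM in 6‰-treated asymptomatic fish, 7.94 FPKM in the 6‰-treated symptomatic group, 8.92 FPKM in the 3‰-treated asymptomatic group, 7.31 FPKM in the 3‰-treated symptomatic group and 6.44 FPKM in con.

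The files name 188 of the 200 genes by a genome locus (a scaffold with its start and end position), and 12 by a newGene number whose position is not given. The build of the genome is not stated in the sources used here. None of the loci matched the gene table used for reference, so no product and no function is given for a member. For the same reason the gill label was not checked against marker genes. The genes described by name below are those that the study pairs with an identifier.

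The gene with the largest difference was newGene_12131. It had 54.2, 55.5 and 40.4 FPKM in 6‰-treated asymptomatic fish. The other fish had 22.6, 7.44 and 4.02 FPKM in the 6‰-treated symptomatic group, 17.3, 26.3 and 6.27 in the 3‰-treated asymptomatic group, 17.7, 7.46 and 7.12 in the 3‰-treated symptomatic group and 1.57, 2.77 and 16.1 in con. The lowest 6‰-treated asymptomatic fish was 1.54 times the highest other fish, 3‰-treated asymptomatic replicate 2, and the con fish were themselves spread, with replicate 3 far above the other two. newGene_12500 came next, with 54.6, 16.0 and 20.5 FPKM in 6‰-treated asymptomatic fish. It had 5.23, 8.93 and 9.22 FPKM in the 6‰-treated symptomatic group, 7.77, 13.4 and 1.95 in the 3‰-treated asymptomatic group, 6.96, 8.87 and 6.64 in the 3‰-treated symptomatic group and 3.24, 3.21 and 5.02 in con. Here 1 fish, 6‰-treated asymptomatic replicate 1, was well above the rest of its group, whose mean was 30.4 ± 21.1 FPKM (SD, n = 3). newGene_2800, at rank 9, showed the same kind of spread. It had 104, 42.8 and 46.0 FPKM in 6‰-treated asymptomatic fish, against values between 6.89 and 39.4 FPKM in the other 12 fish, and con replicate 3 at 35.5 FPKM came close to the lower 6‰-treated asymptomatic fish.

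The widest ratio between the lowest 6‰-treated asymptomatic fish and all other fish was found in 2 loci. CI01000316_01697843_01700472 had 21.7, 13.5 and 14.05 FPKM in 6‰-treated asymptomatic fish. The other fish had 2.84, 7.43 and 6.88 FPKM in the 6‰-treated symptomatic group, 2.63, 7.09 and 5.95 in the 3‰-treated asymptomatic group, 3.12, 4.23 and 3.10 in the 3‰-treated symptomatic group and 3.07, 3.64 and 4.55 in con. Its lowest 6‰-treated asymptomatic fish was 1.81 times the highest other fish, and the 4 other groups overlapped among themselves. CI01124006_00000233_00003314 was a low gene, with 2.74, 3.94 and 2.83 FPKM in 6‰-treated asymptomatic fish. It had 0.427, 0.877 and 0.638 FPKM in the 6‰-treated symptomatic group, 1.62, 0.820 and 0.122 in the 3‰-treated asymptomatic group, 0.630, 0.185 and 0.563 in the 3‰-treated symptomatic group and 0.568, 0.172 and 0.152 in con. The ratio of the lowest 6‰-treated asymptomatic fish to the highest other fish was 1.69. The widest span between fish outside the group was inside the 3‰-treated asymptomatic group, which held both the lowest and the highest of the 12 values.

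CI01180000_08012978_08021101 had 13.0, 11.1 and 10.5 FPKM in 6‰-treated asymptomatic fish, against values between 1.88 and 6.25 FPKM in the other 12 fish, a ratio of lowest to highest of 1.68. CI01000009_04763889_04769573 had 32.3, 31.7 and 22.8 FPKM in 6‰-treated asymptomatic fish. In the other fish it had 8.00, 11.1 and 16.1 FPKM in the 6‰-treated symptomatic group, 8.98, 15.9 and 12.5 in the 3‰-treated asymptomatic group, 7.16, 8.06 and 4.62 in the 3‰-treated symptomatic group and 10.3, 7.14 and 7.99 in con. The next highest fish were 6‰-treated symptomatic replicate 3 and 3‰-treated asymptomatic replicate 2, and all 3 3‰-treated symptomatic fish lay under all 3 3‰-treated asymptomatic fish. CI01000325_06970517_06971050 had 59.5, 71.5 and 45.8 FPKM in 6‰-treated asymptomatic fish, and its gap was small because 6‰-treated symptomatic replicate 3 reached 43.9 FPKM. Over the other 11 fish it was between 6.29 FPKM in con replicate 2 and 37.0 FPKM in 3‰-treated asymptomatic replicate 2. CI01000072_04225105_04268007 was the most even of the first 15 genes outside the group, with 34.5, 25.7 and 23.8 FPKM in 6‰-treated asymptomatic fish and between 8.61 and 14.9 FPKM in the other 12 fish. The ratio of its means was 2.45.

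The remaining genes among the first 15 were CI01000039_02601501_02601730, CI01000010_11939543_11947405, CI01000029_04485919_04510826, CI01000068_01000564_01002162, CI01000034_03285980_03289258 and CI01000190_01008838_01011938. Their log2 differences were between 1.22 and 1.36. CI01000034_03285980_03289258 was the lowest in level of these, with 3.52, 5.16 and 4.93 FPKM in 6‰-treated asymptomatic fish and between 0.353 and 3.30 FPKM in the other 12 fish. CI01000190_01008838_01011938 was the highest, with 185, 129 and 115 FPKM in 6‰-treated asymptomatic fish and between 28.0 and 106 FPKM in the other 12 fish. In both of them the closest other fish was from the 6‰-treated symptomatic group.

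**Figure D1:**
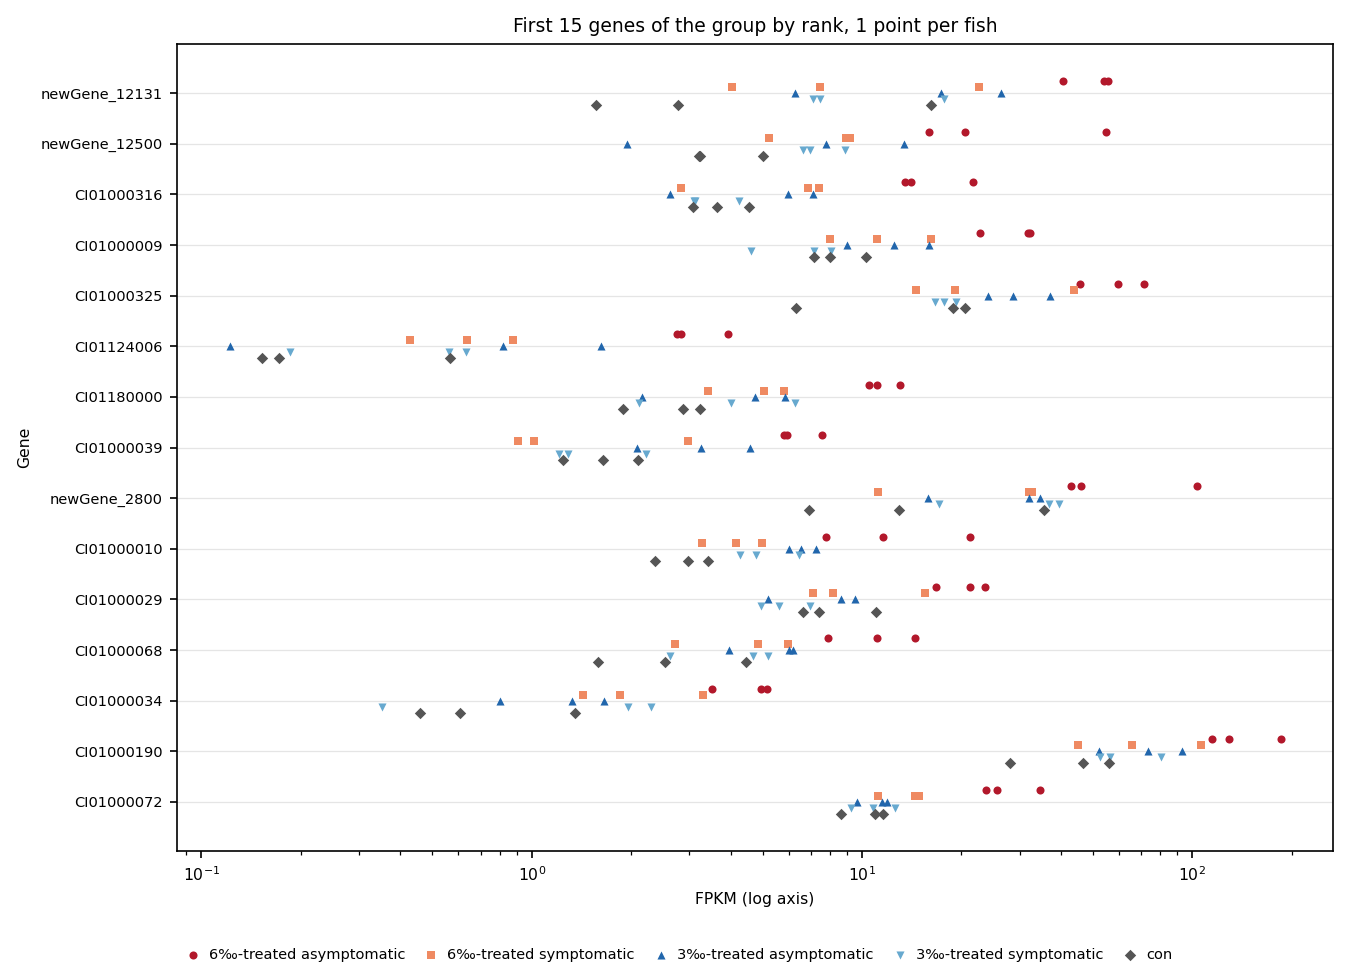
FPKM of the first 15 of the 200 genes in each of the 15 fish, on a log axis, with 1 point per fish and 5 rows of points per gene for the 5 groups; a locus is labelled by its scaffold. The 6‰-treated asymptomatic points lie to the right of all others in each gene by the way the genes were chosen, with the widest gap in CI01000316 (ratio 1.81) and the narrowest in CI01000325 (ratio 1.04).

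Of the 5 genes of highest level, CI01000190_01008838_01011938 is among the first 15 and is given above, and the other 4 had log2 differences between 0.74 and 1.21. CI01000301_00759695_00763509 had 1569, 1539 and 1138 FPKM in 6‰-treated asymptomatic fish. The other fish had 709, 829 and 1071 FPKM in the 6‰-treated symptomatic group, 827, 1043 and 548 in the 3‰-treated asymptomatic group, 841, 906 and 536 in the 3‰-treated symptomatic group and 633, 659 and 894 in con. The mean of the 6‰-treated asymptomatic fish was 1.79 times that of the other 12, and the closest of the 12 were 6‰-treated symptomatic replicate 3 and 3‰-treated asymptomatic replicate 2. CI01000046_02006028_02024639 had 1116, 787 and 615 FPKM in 6‰-treated asymptomatic fish, against values between 265 and 577 FPKM in the other 12 fish, and CI01000046_04415076_04421680 on the same scaffold had 248, 228 and 193 FPKM in 6‰-treated asymptomatic fish, against values between 76.2 and 173 FPKM in the other 12 fish. The locus CI01000321_00144312_00147001 had 232, 172 and 149 FPKM in 6‰-treated asymptomatic fish. The other 12 fish had 73.5, 105 and 79.2 FPKM in the 6‰-treated symptomatic group, 121, 120.0 and 77.7 in the 3‰-treated asymptomatic group, 73.0, 81.1 and 37.1 in the 3‰-treated symptomatic group and 47.9, 81.7 and 80.9 in con. Among the 3‰ groups, asymptomatic replicates 1 and 2 were above all 3 symptomatic fish, and asymptomatic replicate 3 overlapped them.

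Where the limits of the list fell is shown by the members with the smallest ratio and by the last members by rank. In CI01000043_00670862_00685333 the lowest 6‰-treated asymptomatic fish was 1.0006 times the highest other fish, and in CI01000340_13350921_13376832 it was 1.001 times as high, so at this edge fish of different groups were level. CI01000043_00670862_00685333 had 26.1, 20.9 and 24.2 FPKM in 6‰-treated asymptomatic fish, against values between 7.09 and 20.9 FPKM in the other 12 fish. The last 2 members by rank, CI01000344_00211152_00211840 and CI01000327_03119424_03126897, had log2 differences of 0.60 and 0.59. The first 2 genes past the limit, CI01000037_03626104_03650769 and CI01000019_00809471_00828531, both had 0.59.

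Within the 6‰-treated asymptomatic group the 3 fish were not alike. Replicate 1 was the highest of the 3 in 129 of the 200 genes, replicate 2 in 46 and replicate 3 in 25, while replicate 3 was the lowest in 110. On the log2(FPKM + 1) scale the SD within this group had a median of 0.16 over the 200 genes. The median was 0.31 within the 6‰-treated symptomatic group, 0.22 within the 3‰-treated asymptomatic group, 0.30 within the 3‰-treated symptomatic group and 0.28 within con. Over all 20971 genes that met the filter on level the medians were 0.16, 0.33, 0.18, 0.27 and 0.25 for the same groups. The values of the 6‰-treated asymptomatic fish in the 200 genes took part in the choice, so their SD there is a description.

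The fish of the other 4 groups did not share 1 level. On the log2(FPKM + 1) scale, relative to the mean of the other 12 fish, the median of the 200 genes was 0.85, 0.77 and 0.67 in the 6‰-treated asymptomatic fish. It was 0.18, 0.13 and -0.11 in the 6‰-treated symptomatic group, 0.15, 0.35 and 0.07 in the 3‰-treated asymptomatic group, 0.12, 0.04 and -0.32 in the 3‰-treated symptomatic group and -0.27, -0.26 and 0.05 in con. All 3 3‰-treated asymptomatic fish were above the mean of the 12, and the lowest 3 fish were 3‰-treated symptomatic replicate 3 and con replicates 1 and 2. The same median over the 24647 tested genes stayed between -0.09 and 0.08 in every fish. Of the 12 fish, 3‰-treated asymptomatic replicate 2 was the highest in 68 genes (34%), more than any other fish, and 3‰-treated symptomatic replicate 3 and con replicate 1 were each the lowest in 44. By group means, the second place after the 6‰-treated asymptomatic fish went to the 3‰-treated asymptomatic group in 119 genes, to the 6‰-treated symptomatic group in 59, to the 3‰-treated symptomatic group in 15 and to con in 7. The lowest place was held by con in 117 genes and by the 3‰-treated symptomatic fish in 61. These places were not counted over all tested genes, which lean the same way. By group means on this log2 scale, 61.2% of all tested genes were higher in 3‰-treated asymptomatic fish than in con, against 89.5% of the 200. For 6‰-treated symptomatic fish the shares were 55.9% and 77%, and for 3‰-treated symptomatic fish 54.7% and 62%.

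**Figure D2:**
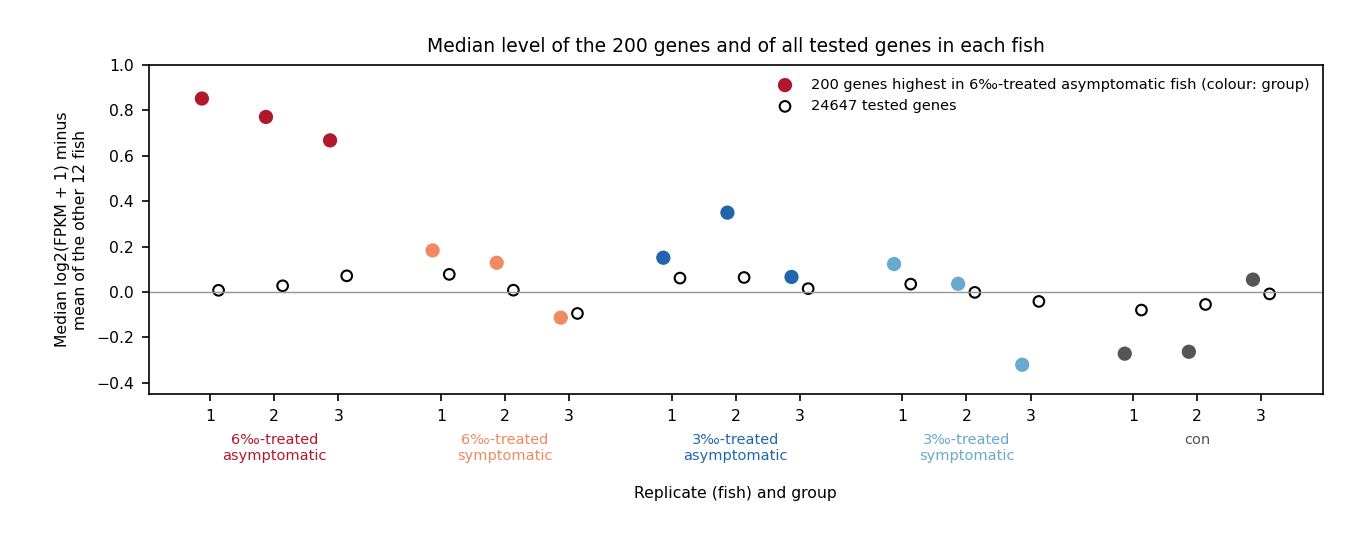
Median over the 200 genes (filled points, coloured by group) and over all 24647 tested genes (open points) of log2(FPKM + 1) minus the mean of the other 12 fish, for each of the 15 fish. The 3 6‰-treated asymptomatic fish sit at 0.67 to 0.85 by the choice of the genes, and among the others 3‰-treated asymptomatic replicate 2 is highest at 0.35 and 3‰-treated symptomatic replicate 3 lowest at -0.32.

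The order among the other 4 groups was tested with limma on log2(FPKM + 1), in 1 fit over all groups for 24647 genes that averaged at least 0.5 FPKM. The choice of the genes used these 12 fish as an upper limit and in the mean that ranked them, and it set no order between their groups beyond the condition on con. All tested genes had no such upper limit and a lower filter on level. Shares of the 200 and of all tested genes are therefore not fully like for like. The estimate of the spread shared by all groups also drew on the 6‰-treated asymptomatic fish, whose values chose the genes. Their SD in the 200 genes had the smallest median of the 5 groups, so the p of a member is not free of the choice. Counts from a fit without these fish are given with the alternatives at the end. A gene was counted as up- or down-regulated when its fold change reached 1.5 with an unadjusted p below 0.05, and no statement was found on whether the study adjusted its p. The Benjamini-Hochberg adjusted p over all tested genes is given beside it. No member had an adjusted p below 0.05 in any of the 5 comparisons, so each call below rests on the unadjusted p alone. An exact permutation test of 3 fish against 3 cannot give a p below 0.1. The comparisons share groups and are not independent of each other. In all, 42 of the 200 genes (21%) passed the threshold in at least 1 of the 5 comparisons and 158 in none, while 16.8% of all tested genes passed in at least 1.

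Outside the chosen group the most members passed the threshold in 3‰-treated asymptomatic fish vs con. Of the 200 genes, 23 were up-regulated and 0 were down-regulated, a share of 11.5%, while 4.24% of all tested genes were up-regulated and 1.5% down-regulated. The lowest adjusted p of the 200 in limma was 0.273, and of all tested genes 0.00811% passed with the adjusted p. The median log2 fold change of the 200 genes was 0.35, with 179 (89.5%) above 0, and that of all tested genes was 0.10, with 61.2% above 0. CI01000021_04886787_04893309 changed with the smallest p. It had 4.76, 5.90 and 4.73 FPKM in 3‰-treated asymptomatic fish, against 2.95, 2.06 and 2.78 FPKM in con, and the groups did not overlap (log2 fold change 0.77 ± 0.17 (SE), limma adjusted p = 0.273). CI01000001_05436238_05437581 had 10.1, 12.1 and 13.2 FPKM, against 8.39, 7.04 and 6.85 FPKM in con (log2 fold change 0.60 ± 0.15 (SE), limma adjusted p = 0.331). Its fold was just past 1.5, and it fell under 1.5 with either other scaling and without any of 4 single fish. CI01000339_05584421_05594083 was also higher in all 3 3‰-treated asymptomatic fish, at 3.69, 5.48 and 5.65 FPKM, against 2.68, 2.49 and 2.60 FPKM in con (log2 fold change 0.71 ± 0.18 (SE), limma adjusted p = 0.331). The count of 23 depended on the scaling and on single fish. It was 12 with median-ratio scaling and 10 with quantile normalization, where 2.98% and 2.59% of all tested genes were up-regulated and 2.45% and 2.51% down-regulated. All of the genes counted under these alternatives were up-regulated. Without 3‰-treated asymptomatic replicate 2 there were 9, against 4.19% of all tested genes up-regulated, a share near that of the 200. Without con replicate 1 there were 14 (3.21% of all tested genes up-regulated), without con replicate 2 also 14 (3.35%) and without con replicate 3 there were 48, when 7.06% of all tested genes were up-regulated and 3.42% down-regulated.

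In 6‰-treated symptomatic fish vs con, the comparison at the same salinity as the chosen group, 13 of the 200 genes were up-regulated (6.5%) and 0 down-regulated. Of all tested genes 4.02% were up-regulated and 1.95% down-regulated. The median log2 fold change was 0.21 over the 200 genes and 0.04 over all. The lowest adjusted p of the 200 in limma was 0.206 (0.0365% of all tested genes passed with the adjusted p). CI01000010_00826648_00831638 had 5.12, 6.14 and 7.69 FPKM in 6‰-treated symptomatic fish, against 2.77, 2.97 and 3.62 FPKM in con (log2 fold change 0.82 ± 0.21 (SE), limma adjusted p = 0.206). The fish did not overlap, and in 6‰-treated asymptomatic fish the same gene had 12.6, 11.6 and 9.70 FPKM. CI01000325_07620275_07621402 had 9.38, 12.1 and 10.1 FPKM, against 4.39, 6.61 and 6.40 FPKM in con (log2 fold change 0.77 ± 0.21 (SE), limma adjusted p = 0.214). Here too every 6‰-treated symptomatic fish exceeded every con fish. Both loci of a neighbouring pair on scaffold CI01000039 were among the 13. CI01000039_04738237_04759689 had 37.6, 36.3 and 33.5 FPKM, against 28.3, 20.4 and 16.8 FPKM in con, and CI01000039_04652941_04726975 had 5.38, 6.62 and 4.46 FPKM, against 2.65, 3.08 and 3.32 FPKM in con. The count was 8 with quantile normalization, where 3.05% of all tested genes were up-regulated and 2.57% down-regulated. It was 23 without 6‰-treated symptomatic replicate 3 (21 up- and 2 down-regulated), against 5.87% and 2.16% of all tested genes, and 20 without con replicate 3 (all up-regulated), against 4.95% and 2.79%.

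In 3‰-treated symptomatic fish vs con the 200 genes differed little. Up-regulated were 4 genes (2%) and down-regulated 1 (0.5%), against 4.27% and 2.29% of all tested genes. With all fish in, both shares were under those of genes at large, but the up-regulated share depended on single fish. With the filter at a mean FPKM of at least 1, the shares of all tested genes were 4.33% and 2.18%. The median log2 fold change was 0.10, and 0.03 over all tested genes. The lowest adjusted p of the 200 was 0.201 in limma, and 0.0406% of all tested genes passed with the adjusted p. CI01000010_00826648_00831638 was again the first, with 6.66, 5.55 and 5.72 FPKM in 3‰-treated symptomatic fish, against the con values above (log2 fold change 0.76 ± 0.21 (SE), limma adjusted p = 0.201). CI01000181_00071667_00077591 had 3.58, 2.72 and 1.48 FPKM, against 0.484, 1.20 and 1.59 FPKM in con (log2 fold change 0.77 ± 0.26 (SE), limma adjusted p = 0.284). The lowest 3‰-treated symptomatic fish lay inside the range of con, and the gene lost the threshold without 3‰-treated symptomatic replicate 1 or con replicate 1. The 1 gene that fell, CI01000029_08156225_08174249, had 1.79, 2.08 and 2.41 FPKM in 3‰-treated symptomatic fish, against 5.36, 3.87 and 3.15 FPKM in con (log2 fold change -0.71 ± 0.27 (SE), limma adjusted p = 0.354). It did not overlap between these groups, and it too lost the threshold without 3‰-treated symptomatic replicate 1 or con replicate 1. The count of 5 was 15 (14 up- and 1 down-regulated) without 3‰-treated symptomatic replicate 3, where 6.13% of all tested genes were up-regulated and 3.88% down-regulated. It was likewise 15 (14 up- and 1 down-regulated) without con replicate 3, with 5.41% and 4.25% of all tested genes. With either of these fish left out, the up-regulated share of the 200 was above that of all tested genes. The count was 3 (2 up- and 1 down-regulated) without con replicate 1, with 3.72% and 1.87%. With a pseudocount of 0.1 it was 8 (5 up- and 3 down-regulated), with 5.22% and 2.86%. The median was 0.01 without con replicate 1 and 0.25 without 3‰-treated symptomatic replicate 3.

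For CI01000010_00826648_00831638 and CI01000181_00071667_00077591 the 3 comparisons with con are set side by side in the order 6‰-treated symptomatic, 3‰-treated asymptomatic and 3‰-treated symptomatic fish. They share the con fish, and each value passed the threshold. CI01000010_00826648_00831638 had log2 fold changes of 0.82, 0.64 and 0.76 in these comparisons, and CI01000181_00071667_00077591 of 0.96, 0.70 and 0.77. In CI01000010_00826648_00831638, 3‰-treated asymptomatic replicate 3 at 3.47 FPKM was the 1 treated fish under con replicate 3. In CI01000181_00071667_00077591 the 6‰-treated asymptomatic fish had 4.61, 5.12 and 5.21 FPKM and the con fish 0.484, 1.20 and 1.59 FPKM.

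The 2 groups kept at 3‰ were also compared. In 3‰-treated symptomatic vs 3‰-treated asymptomatic fish 0 genes were up-regulated and 11 down-regulated (5.5%), against 2.27% and 2.77% of all tested genes. The median log2 fold change was -0.25, with 27 of the 200 (13.5%) above 0, and it was -0.07 over all tested genes, of which 41.4% were above 0. The lowest adjusted p of the 200 in limma was 0.2003, with 0% of all tested genes passing by the adjusted p. CI01000021_04886787_04893309 had 2.83, 3.51 and 2.06 FPKM in 3‰-treated symptomatic fish, against 4.76, 5.90 and 4.73 FPKM in 3‰-treated asymptomatic fish (log2 fold change -0.70 ± 0.17 (SE), limma adjusted p = 0.2003). CI01000339_05584421_05594083 had 3.09, 2.16 and 2.31 FPKM, against 3.69, 5.48 and 5.65 FPKM in 3‰-treated asymptomatic fish (log2 fold change -0.75 ± 0.18 (SE), limma adjusted p = 0.204). In both genes the 2 groups did not overlap, and the symptomatic fish overlapped con. CI01000021_04886787_04893309 fell under a fold of 1.5 without 3‰-treated symptomatic replicate 3 (log2 fold change -0.55). The 3‰-treated asymptomatic fish are the same as in the comparison with con. CI01000009_04763889_04769573, described above, was also among the 11. The count was 7 with quantile normalization, where 2.89% of all tested genes were up-regulated and 1.85% down-regulated. With a pseudocount of 0.01 it was 18 (1 up- and 17 down-regulated), where 2.57% of all tested genes were up-regulated and 3.85% down-regulated. When a fish was left out, every gene counted was down-regulated. There were 4 (2%) without 3‰-treated asymptomatic replicate 2 and 4 without 3‰-treated symptomatic replicate 3, under the 2.18% and 3.12% of all tested genes that were then down-regulated. Without 3‰-treated asymptomatic replicate 1 there were 18 (3.32% of all tested genes) and without 3‰-treated symptomatic replicate 1 there were 23 (4.71% of all tested genes).

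Between the symptomatic fish of both salinities few of the 200 genes differed. In 6‰-treated symptomatic vs 3‰-treated symptomatic fish 5 genes were up-regulated (2.5%) and 0 down-regulated, against 1.39% and 1.03% of all tested genes. The median log2 fold change was 0.10, and 0.00 over all tested genes. The lowest adjusted p of the 200 in limma was 0.933 (0.00406% of all tested genes passed with the adjusted p). CI01046936_00001988_00003616 had 9.52, 12.1 and 12.9 FPKM in 6‰-treated symptomatic fish, against 8.53, 8.40 and 5.29 FPKM in 3‰-treated symptomatic fish (log2 fold change 0.59 ± 0.18 (SE), limma adjusted p = 0.933). CI01000095_03348557_03361966 had 8.06, 10.6 and 7.73 FPKM, against 6.68, 3.57 and 5.84 FPKM in 3‰-treated symptomatic fish (log2 fold change 0.65 ± 0.23 (SE), limma adjusted p = 0.933). Neither gene overlapped between these groups, but CI01046936_00001988_00003616 passed the fold by little and lost it with either other scaling and without any of 3 single fish. CI01000095_03348557_03361966 lost the threshold without 6‰-treated symptomatic replicate 2 or 3‰-treated symptomatic replicate 2. Of the 105 pairs of fish, 6‰-treated symptomatic replicate 1 and 3‰-treated symptomatic replicate 1 were the closest over all tested genes, with a median absolute log2 difference of 0.14 where the next pair had 0.18, although their labels differ in salinity. Leaving out 6‰-treated symptomatic replicate 1 gave 9 genes (8 up- and 1 down-regulated), and of all tested genes 4.72% were then up-regulated and 4.11% down-regulated, so the share of the 200 was under that of genes at large. Leaving out 3‰-treated symptomatic replicate 1 gave 11 (all up-regulated), against 1.63% up-regulated and 1.19% down-regulated of all tested genes. Without 3‰-treated symptomatic replicate 3 the median of the 200 genes was -0.03, with 2 genes up- and 2 down-regulated, against 3% and 2.01% of all tested genes, and without 6‰-treated symptomatic replicate 1 it was 0.04. The count was 3 without replicate 2 of either group. Of all tested genes 1.14% were up-regulated and 0.759% down-regulated without 6‰-treated symptomatic replicate 2, and 0.832% and 0.881% without 3‰-treated symptomatic replicate 2. The count was also 3 with either other scaling, with which 1.21% (median-ratio) and 1.04% (quantile) of all tested genes were up-regulated and 1.21% and 1.29% down-regulated.

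**Figure D3:**
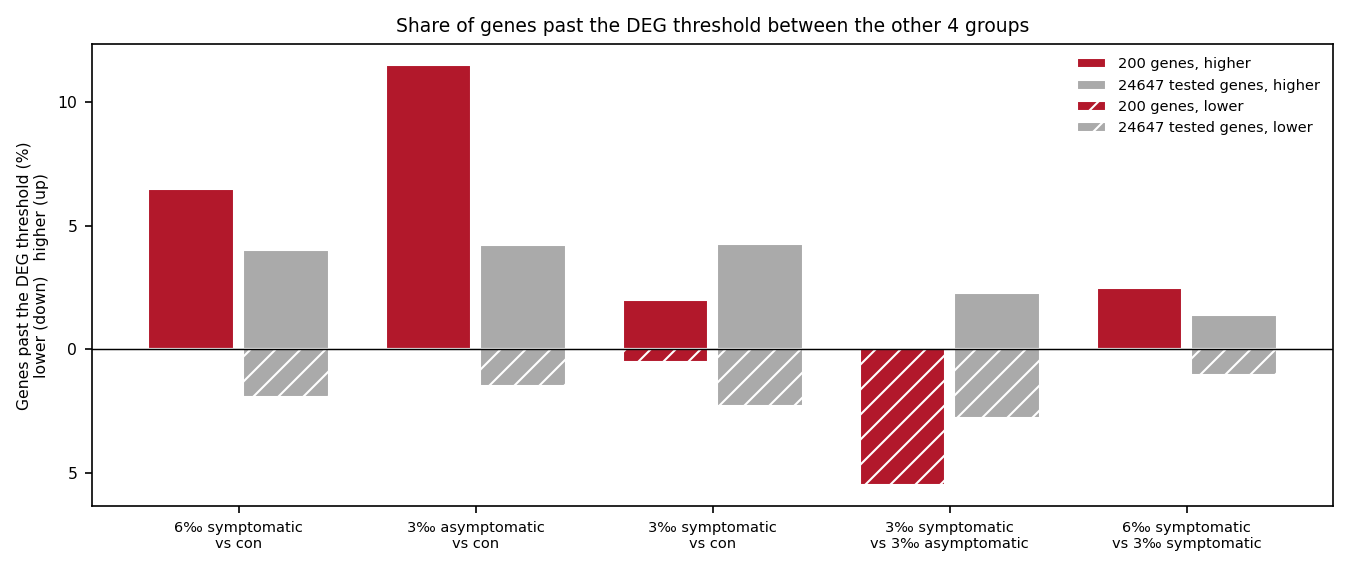
Percent of the 200 genes (left bar of each pair) and of all 24647 tested genes (right bar) past a fold change of 1.5 with an unadjusted p below 0.05, up-regulated above 0 and down-regulated (hatched) below it, in the 5 comparisons among the other 4 groups. For the 200 genes the longest bar upwards is that of 3‰-treated asymptomatic fish vs con, at 11.5% against 4.24% of all tested genes, and the longest downwards that of 3‰-treated symptomatic vs 3‰-treated asymptomatic fish, at 5.5% against 2.77%.

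The 188 genes with a position lay on 99 scaffolds. On 57 of these there was 1 member, and the most on 1 scaffold was 6, reached by 5 scaffolds (CI01000000, CI01000001, CI01000010, CI01000013 and CI01000325). The median length from start to end was 8150 bp, and 6160 bp over all loci that met the filter on level. Members that followed each other with no other locus between them formed 7 pairs (14 genes) and no longer run. The 5 pairs with the highest differences by their mean are described here.

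On CI01000001 the pair lay 280 bp apart, at 5436238 to 5437581 and 5437862 to 5438101. The first locus had 20.0, 16.8 and 16.7 FPKM in 6‰-treated asymptomatic fish and 11.5, 8.54 and 9.08 FPKM in the 6‰-treated symptomatic group, 10.1, 12.1 and 13.2 in the 3‰-treated asymptomatic group, 8.14, 9.81 and 9.17 in the 3‰-treated symptomatic group and 8.39, 7.04 and 6.85 in con. The second had 17.9, 12.7 and 15.2 FPKM in 6‰-treated asymptomatic fish and 9.39, 6.63 and 8.07 FPKM in the 6‰-treated symptomatic group, 7.82, 11.6 and 8.91 in the 3‰-treated asymptomatic group, 8.31, 8.97 and 6.12 in the 3‰-treated symptomatic group and 6.21, 5.53 and 6.51 in con. In both, 6‰-treated asymptomatic replicate 1 was the highest of all fish, and in the second replicate 2 of that group came closest to the others. On CI01000004 the pair was 12339 bp apart. CI01000004_05318592_05325105 had 13.9, 11.6 and 12.2 FPKM in 6‰-treated asymptomatic fish and 11.6, 7.91 and 5.60 FPKM in the 6‰-treated symptomatic group, 9.40, 8.12 and 9.08 in the 3‰-treated asymptomatic group, 10.3, 6.91 and 4.45 in the 3‰-treated symptomatic group and 4.47, 5.39 and 8.14 in con. CI01000004_05337445_05339997 had 25.8, 19.8 and 20.9 FPKM in 6‰-treated asymptomatic fish and 15.6, 13.9 and 6.70 FPKM in the 6‰-treated symptomatic group, 13.3, 13.7 and 12.8 in the 3‰-treated asymptomatic group, 17.7, 10.5 and 4.54 in the 3‰-treated symptomatic group and 6.60, 9.12 and 13.8 in con. In both loci 3‰-treated symptomatic replicate 3, con replicate 1 and 6‰-treated symptomatic replicate 3 were among the lowest 4 of the 12 fish, and in the first the lowest 6‰-treated asymptomatic fish was 1.00 times 6‰-treated symptomatic replicate 1.

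The pair on CI01000039, whose values in 6‰-treated symptomatic and con fish are given above, was 11261 bp apart. CI01000039_04738237_04759689 had 68.8, 56.1 and 46.7 FPKM in 6‰-treated asymptomatic fish, and CI01000039_04652941_04726975 had 6.84, 8.53 and 7.82 FPKM in 6‰-treated asymptomatic fish. In the first no other fish exceeded 37.6 FPKM, and in the second no other fish exceeded 6.62 FPKM. On CI01000131 the loci were 3281 bp apart but unlike in level. CI01000131_00168723_00169446 had 32.2, 31.2 and 32.5 FPKM in 6‰-treated asymptomatic fish and between 7.54 and 26.4 FPKM in the other 12 fish, while CI01000131_00142003_00165441 had 2.01, 3.65 and 1.94 FPKM in 6‰-treated asymptomatic fish and between 0.368 and 1.54 FPKM in the other 12 fish. On CI01000325 the loci were 6097 bp apart, with 31.2, 28.1 and 26.6 FPKM in 6‰-treated asymptomatic fish in CI01000325_02591867_02600477 and 20.8, 16.0 and 17.1 FPKM in 6‰-treated asymptomatic fish in CI01000325_02606575_02617202. The other 12 fish were between 13.0 and 21.1 FPKM in the first and between 4.74 and 12.1 FPKM in the second.

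Neighbours of the members that were not members themselves were set beside all loci. Of 217 such tested loci, 4 (1.84%) met the criteria, 64.1% were higher in the 6‰-treated asymptomatic fish than in the mean of the other 12, and the median log2 difference was 0.12. Over all 21056 tested loci with a position, members included, 451 (2.14%) met the criteria, and the other values were 57.1% and 0.05. These 451 loci include the 188 members with a position, whereas the neighbours leave out members by definition. The shares of 1.84% and 2.14% are therefore not alike, and they do not show that neighbours met the criteria less often than other loci. A share of all loci without the members was not computed.

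The 10 genes that met the same criteria but are named in the figures of the study give the list its known genes. The study picked 7 of them from these same libraries, which is no independent evidence of a direction, and 3 (GPRC6A, LMO4.1 and ITPR3) from infected fish. All 10 met the criteria, so the values are given with no test. Claudins, the tight junction proteins, and semaphorins, the guidance cues that also act on immune and epithelial cells, made up 6 of the 10. The study pictures these 6 among immune-related genes that it reports as lower in 3‰-treated than in 6‰-treated fish. It lists further claudins and semaphorin-4B there, which are not among the 10. The 6 therefore reflect which genes the study chose to picture, and they show no theme of the genes without a name. By group means, 3‰-treated asymptomatic fish were above 6‰-treated symptomatic fish in semaphorin-3D (4.85 against 3.67 FPKM) and semaphorin-3ab (2.90 against 2.21 FPKM). They were level in claudin-23 locus CI01000304_04227914_04228723 (93.8 and 93.6 FPKM). In the rest of the 6, the 6‰-treated symptomatic mean was the higher. The 2 claudin-23 loci lay next to each other on CI01000304, as CI01000304_04227914_04228723 and CI01000304_04230808_04231542. The first had 197, 165 and 117 FPKM in 6‰-treated asymptomatic fish. Its other values were 82.5, 111 and 87.6 FPKM in the 6‰-treated symptomatic group, 80.8, 109.9 and 90.9 in the 3‰-treated asymptomatic group, 92.6, 101 and 65.1 in the 3‰-treated symptomatic group and 56.1, 80.8 and 82.2 in con. The second had 24.5, 20.9 and 18.0 FPKM in 6‰-treated asymptomatic fish. Its other values were 9.96, 13.0 and 16.4 FPKM in the 6‰-treated symptomatic group, 8.17, 14.7 and 13.2 in the 3‰-treated asymptomatic group, 7.44, 12.9 and 8.67 in the 3‰-treated symptomatic group and 13.7, 16.4 and 14.5 in con. In both, 6‰-treated asymptomatic replicate 1 was the highest of all fish. They were apart in the other groups, since con was lowest in the first on average (73.0 ± 14.7 FPKM, SD, n = 3), while in the second con (14.9 ± 1.41 FPKM) was above the 3‰-treated symptomatic fish (9.68 ± 2.88 FPKM). How reads shared by similar copies were counted is not stated, so the split between the claudin-23 loci is uncertain.

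Among the semaphorins, semaphorin-4C (CI01000071_03793473_03817709) is a membrane-bound member and semaphorin-3ab, semaphorin-3D and semaphorin-3E belong to the secreted class 3. Semaphorin-4C had 18.1, 11.5 and 11.7 FPKM in 6‰-treated asymptomatic fish. In the other fish it had 8.35, 6.11 and 10.9 FPKM in the 6‰-treated symptomatic group, 8.11, 8.55 and 7.06 in the 3‰-treated asymptomatic group, 5.87, 7.22 and 6.28 in the 3‰-treated symptomatic group and 8.03, 5.46 and 5.78 in con. Semaphorin-3ab (CI01000052_01310118_01328526) had 4.16, 4.72 and 3.64 FPKM in 6‰-treated asymptomatic fish, against values between 1.32 and 3.43 FPKM in the other 12 fish. Every 6‰-treated asymptomatic fish was higher than the others in both, but in semaphorin-4C 6‰-treated symptomatic replicate 3 came close to the lowest of them. Semaphorin-3D (CI01000013_10338616_10372320) and semaphorin-3E (CI01000013_10127318_10157548) lie on the same scaffold. Semaphorin-3D had 7.05, 7.43 and 5.87 FPKM in 6‰-treated asymptomatic fish, against values between 2.44 and 5.82 FPKM in the other 12 fish, and semaphorin-3E had 3.13, 2.57 and 1.98 FPKM in 6‰-treated asymptomatic fish, against values between 0.384 and 1.73 FPKM in the other 12 fish. Both were low genes, with 3‰-treated asymptomatic replicate 1 the closest fish in semaphorin-3D and 6‰-treated symptomatic replicate 3 in semaphorin-3E.

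GPRC6A (CI01073102_00000439_00001194), a receptor that in mammals senses amino acids and cations, had the largest difference of the 10, at 1.65 on the log2 scale. It had 15.8, 4.67 and 5.39 FPKM in 6‰-treated asymptomatic fish. The other 12 fish had 2.44, 1.33 and 1.47 FPKM in the 6‰-treated symptomatic group, 1.85, 4.02 and 2.42 in the 3‰-treated asymptomatic group, 2.18, 1.08 and 0.966 in the 3‰-treated symptomatic group and 1.02, 1.03 and 1.80 in con. Most of the mean came from 6‰-treated asymptomatic replicate 1, and 3‰-treated asymptomatic replicate 2 was nearly as high as the lower fish of the group. LMO4.1 (CI01000050_02393197_02400057), a transcriptional cofactor with LIM domains, had 93.2, 109 and 89.2 FPKM in 6‰-treated asymptomatic fish. Its other values were 55.7, 33.7 and 36.0 FPKM in the 6‰-treated symptomatic group, 62.6, 78.0 and 70.7 in the 3‰-treated asymptomatic group, 59.4, 43.6 and 49.9 in the 3‰-treated symptomatic group and 58.1, 49.4 and 56.7 in con. In this gene the 6‰-treated symptomatic fish were the lowest group on average and the 3‰-treated asymptomatic fish came second. TLR25 (CI01000020_05132989_05135436), a Toll-like receptor of fish, had 10.8, 8.28 and 8.52 FPKM in 6‰-treated asymptomatic fish, against values between 2.38 and 7.87 FPKM in the other 12 fish. ITPR3 (CI01000010_02094715_02126321), a channel that releases calcium from internal stores, had 19.6, 19.2 and 20.0 FPKM in 6‰-treated asymptomatic fish, against values between 13.0 and 19.1 FPKM in the other 12 fish, the smallest difference of the 10 at 0.28 on the log2 scale.

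**Figure D4:**
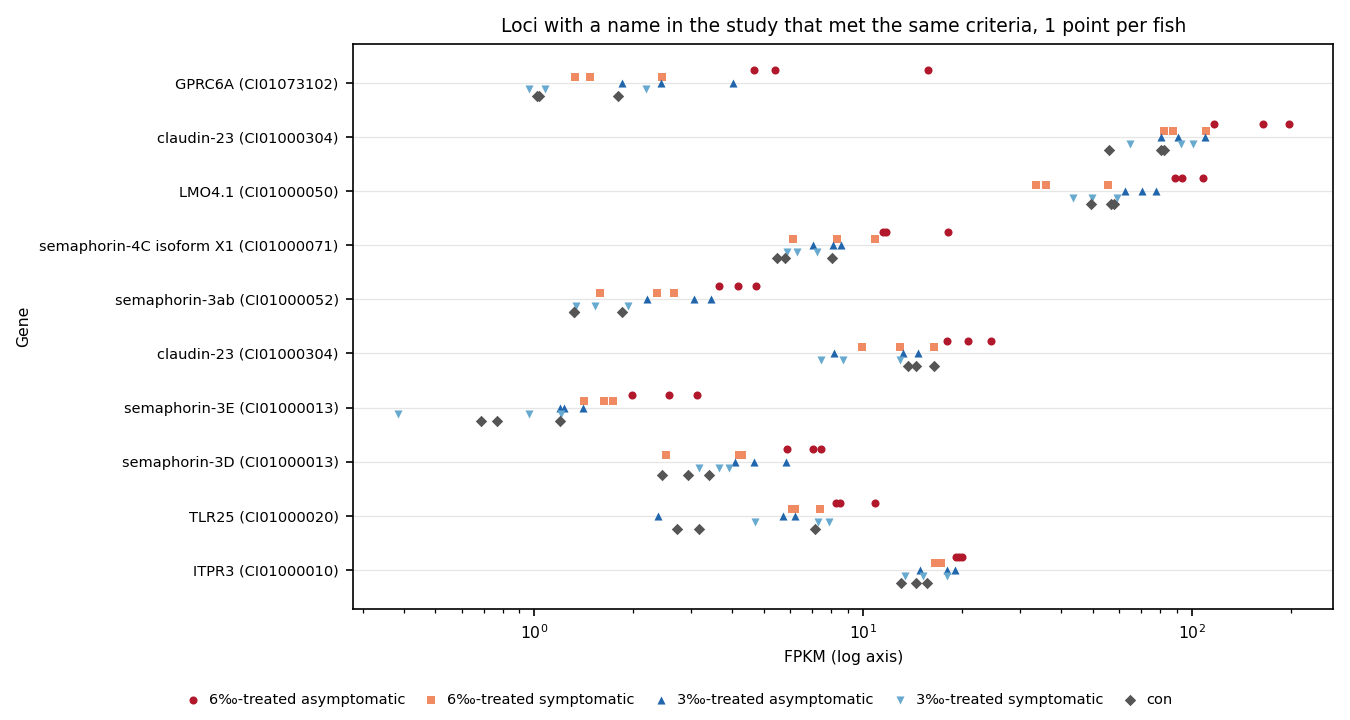
FPKM in each of the 15 fish, on a log axis, of the 10 loci that met the same criteria and carry a name in the study, with 1 point per fish, in rows from the largest log2 difference (1.65, GPRC6A) to the smallest (0.28, ITPR3). In every locus the 3 6‰-treated asymptomatic points lie to the right of the other 12, by the way the loci were chosen.

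The NLRs, cytosolic receptors that sense microbes and cell damage, are a family that the study follows in these fish. The 15 NLR loci that its text names by position were set beside the 200 genes. NLRs that it names by a newGene number were not included. Further NLRs are reported by the study as induced in 6‰-treated asymptomatic fish, without identifiers in its text. None of the 15 was above all other 12 fish in all 3 6‰-treated asymptomatic fish. These 3 fish exceeded the other 12 in 2.33% of the 20971 genes that met the filter on level. Their not doing so in any of 15 loci therefore says little about the NLRs. In 6‰-treated asymptomatic fish vs con 4 of the 15 were up-regulated and 0 down-regulated by the same threshold, against 7.1% and 3.27% of all tested genes (5.39% and 4.31% with median-ratio scaling, where the same number of NLR loci passed). With the adjusted p of limma 0 of the 15 and 1.18% of all tested genes passed. Of these 15, 4 had been picked by the study from these libraries, which is no independent evidence, and 3 of the 4 were up-regulated with a median log2 fold change of 1.86. Of the 11 chosen on infected fish 1 was up-regulated, with a median of 0.21 over the 11, and that locus is no independent evidence either, as given below. An NLRC3 locus (CI01000365_00436141_00445601) had 15.2, 2.44 and 9.44 FPKM in 6‰-treated asymptomatic fish, against 0.687, 0.771 and 1.59 FPKM in con (log2 fold change 2.08 ± 0.54 (SE), limma adjusted p = 0.0869). It had 10.4, 7.52 and 8.99 FPKM in 6‰-treated symptomatic fish, so its 6‰-treated fish overlapped whether symptomatic or not. In 3‰-treated symptomatic fish it had 10.3, 10.5 and 9.60 FPKM, and in 3‰-treated asymptomatic fish 7.85, 4.13 and 0.959 FPKM. Levels above con were therefore found at 3‰ too. The NLRC3 locus chosen on infected fish that passed, CI01117969_00000011_00000940, had 13.7, 13.4 and 6.33 FPKM in 6‰-treated asymptomatic fish, against 4.30, 5.31 and 4.28 FPKM in con (log2 fold change 1.05 ± 0.29 (SE), limma adjusted p = 0.103). The study also pictures that locus among genes taken from these libraries, so no locus that passed was chosen on infected fish alone. Here 2 of the 3 6‰-treated asymptomatic fish exceeded all other fish, and the third was under 2 of the other 12. The study gives the name NLRC3 to several loci, and the split of reads between them is uncertain in the same way.

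The sum of FPKM over all genes was 759044 to 852270 per fish. It was 759044, 779964 and 765191 in the 6‰-treated asymptomatic fish. Of the other 12 fish, 3‰-treated asymptomatic replicate 2 had the lowest sum (764977) and the highest median of the 200 genes (0.35). The highest sum (852270) and the lowest median (-0.32) were those of 3‰-treated symptomatic replicate 3. The next lowest sum was that of con replicate 3 (775422), whose median was 0.05. Whether the sum bears on these levels was not tested. After median-ratio scaling 175 and after quantile normalization 173 of the 200 genes still had all 3 6‰-treated asymptomatic fish above the other 12. The paper gives a minimum yield of clean sequence per library, but how many reads stand behind a value is not given.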

How the data were processed

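The 15 gill libraries came from 15 uninfected grass carp. Per the labels the libraries were made with random primers and no strand-marking step is named, and the paper describes paired-end reads and a de novo assembly with Trinity. For each fish the authors deposited FPKM values of 40116 genes, which are scaled by the length of the transcript and the total of the library. Genome build, aligner and counting are not stated in the sources used here. Read counts cannot be had from FPKM, so no count test was applied, and a few high genes can shift the FPKM of all others. In each file 1 line of annotation text was left out.

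Groups came from the sample titles. limma 3.58.1 (R 4.3.3) was fitted to log2(FPKM + 1) of all 5 groups together, over 24647 genes that averaged at least 0.5 FPKM. Because of the added 1, a low gene has a smaller fold change than its FPKM ratio. The p-values measure the spread between these fish. The limma script was tested on simulated data. Tables and figures were made with Python 3.11.15, pandas 2.3.3, numpy 2.4.6 and matplotlib 3.10.9.

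The 200 genes, the lists and the tests were chosen with earlier results of these data known. The identifiers that the study names were read from the pictures of its figures (302 identifiers, 272 of them in the files). The text names the first 15 genes by rank, the 5 of highest mean FPKM in the 6‰-treated asymptomatic fish, 5 pairs of neighbours, in each of the 5 comparisons the 2 of smallest p in each direction, the 2 largest and 2 smallest ratios of the lowest 6‰-treated asymptomatic fish to the highest other fish, the 2 genes on each side of the limit, and the 10 genes named by the study. The alternatives were median-ratio scaling, quantile normalization, pseudocounts of 0.1 and 0.01, other filters on low FPKM, a fit of only the groups compared, the replicate number as a block, the adjusted p and leaving out each fish in turn. In a comparison, only fish of the groups compared were left out in turn.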

Additional observations from a re-analysis of the deposited data

How the results depend on the processing

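The number of genes that met the criteria before the limit of 200 was 469, and 474 to 942 when 1 fish was left out. The number of the 200 genes past the threshold, when 1 fish of the groups compared was left out, was 10 to 23 in 6‰-treated symptomatic fish vs con, 9 to 48 in 3‰-treated asymptomatic fish vs con, 3 to 15 in 3‰-treated symptomatic fish vs con, 4 to 23 in 3‰-treated symptomatic vs 3‰-treated asymptomatic fish and 3 to 11 in 6‰-treated symptomatic vs 3‰-treated symptomatic fish. With the adjusted p of limma it was 0 in all 5. The shares of all tested genes also moved when 1 fish was left out, and follow in the same order. Up-regulated were 3.37% to 5.87%, 2.93% to 7.06%, 3.39% to 6.13%, 1.9% to 3.19% and 0.832% to 4.72%. Down-regulated were 1.78% to 3.14%, 1.06% to 3.42%, 1.7% to 4.25%, 2.18% to 4.71% and 0.569% to 4.11%. Median-ratio scaling gave 12 in 3‰-treated asymptomatic fish vs con and 3 in 6‰-treated symptomatic vs 3‰-treated symptomatic fish. Quantile normalization gave 8 in 6‰-treated symptomatic fish vs con, 10 in 3‰-treated asymptomatic fish vs con, 7 in 3‰-treated symptomatic vs 3‰-treated asymptomatic fish and 3 in 6‰-treated symptomatic vs 3‰-treated symptomatic fish. Pseudocounts of 0.1 and 0.01 gave 8 and 8 in 3‰-treated symptomatic fish vs con and 8 and 9 in 6‰-treated symptomatic vs 3‰-treated symptomatic fish, and 0.01 gave 18 in 3‰-treated symptomatic vs 3‰-treated asymptomatic fish. In 6‰-treated symptomatic vs 3‰-treated symptomatic fish, 1.9% (0.1) and 1.86% (0.01) of all tested genes were then up-regulated and 1.19% and 1.17% down-regulated. In 3‰-treated symptomatic fish vs con these shares were 5.13% and 2.71% with 0.01. A fit of only the groups compared did not use the 6‰-treated asymptomatic fish. In the order of the 5 comparisons above it gave 13, 24, 6 (5 up- and 1 down-regulated), 12 (all down-regulated) and 3. Of all tested genes 3.49%, 5.16%, 4.52%, 2.35% and 0.995% were then up-regulated and 1.84%, 1.72%, 2.26%, 3.05% and 0.898% down-regulated. The cause of these changes was not tested. Of the 15 NLR loci, 4 passed in 6‰-treated asymptomatic fish vs con, 3 to 5 when 1 fish was left out and 0 with the adjusted p. With 1 fish left out, 5.53% to 9.6% of all tested genes were up-regulated and 2.4% to 4.71% down-regulated. For the 11 single calls named in the 5 comparisons, 136 alternatives left the call as it was, 18 took it below the threshold and none turned its direction. The adjusted p was not among the alternatives counted here, and none of the 11 calls passed with it. For the first 15 genes, whose difference has no test, it moved in 255 alternatives by less than the SD of the 6‰-treated asymptomatic fish. Leaving out 1 of these 3 fish cannot move their mean by as much as their SD, so those alternatives could not come out otherwise. The same values chose the genes, so the count is a description.

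Fish with the same replicate number did not deviate together in every pair (correlations between -0.47 and 0.54), so the numbers were not used to pair the fish. The highest correlations were in 6‰-treated symptomatic vs 3‰-treated symptomatic fish, at 0.54, -0.01 and 0.51 for replicates 1, 2 and 3. A test that pairs only the fish of that comparison was not run. With the replicate number as a block, 12, 21, 5, 11 and 4 of the 200 genes passed in the 5 comparisons, in the order of the paragraph above. Of all tested genes 3.98%, 4.28%, 4.22%, 2.2% and 1.33% were then up-regulated and 2.02%, 1.44%, 2.3%, 2.74% and 1.03% down-regulated. Of the NLR loci 4 passed, where 6.97% of all tested genes were up-regulated and 3.2% down-regulated in 6‰-treated asymptomatic fish vs con. The number of reads behind a value is not given, and 3 fish per group limit what can be detected.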
